A study of Homo sapiens with 29 samples.

Results

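PC9 cells in which the AXL knockout was complemented with wild-type AXL (WT) were compared with 6 lines that received AXL with a tyrosine-to-phenylalanine change instead (Y634F, Y643F, Y698F, Y726F, Y750F and Y821F). WT was represented by 3 of the 29 RNA-seq libraries of the series and the mutants by 18, chosen by the line named in the sample labels. PC9 is an EGFR-mutant lung adenocarcinoma cell line. All 7 lines shared the same history, namely a CRISPR/Cas9 knockout of AXL directed at the kinase domain, lentiviral transduction of an AXL cassette and sorting, so WT is 1 transduced population and not a set of clones. The study states that only a minority of the transduced cells expressed AXL, so that most cells lacked it. It describes the proportion without AXL as comparable between the mutant lines. From 300000 seeded cells, RNA was taken after 24 h without drug (UT), with the EGFR inhibitor erlotinib at 1 μM (E), or with the same erlotinib dose plus the AXL-activating antibody AF154 at 300 ng/mL (EA). Each line had 1 library per treatment. Kinase-dead add-back (KD), knockout (KO, UT and E) and parental (PAR) libraries were in no test and were used to place values, to set the filter on low genes and to read retained-intron shares.

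AXL is a receptor tyrosine kinase of the TAM family, whose other members are TYRO3 and MERTK and whose ligand is GAS6. Phosphorylated tyrosines of its intracellular part activate the kinase or dock adaptor proteins, and replacing tyrosine by phenylalanine removes the phosphate acceptor while keeping the ring. In EGFR-mutant lung cancer cells AXL is known as a bypass receptor that sustains signaling when EGFR is blocked. The comparison of WT with the mutants sets a single line whose AXL kept all of these tyrosines against lines that each lack a different tyrosine. The mutants are not a uniform class. In the study's phenotypes Y698F and Y726F resembled PAR and WT, whereas Y750F resembled KO and KD.

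The 6 replaced codons lie in exons 16 to 20 of AXL (ENSG00000167601, chromosome 19 from 41219203 to 41261766, plus strand, GRCh38). They are shown because they are the only designed difference between WT and each mutant. Each line gives 27 bases of the reference coding strand of transcript AXL-201 with the tyrosine codon in capitals, and the Y643F window is spliced across the junction of exons 16 and 17.
Y634F, codon at chr19:41252941-41252943: agcttcctcctcTATtcccggctcggg
Y643F, codon at chr19:41253599-41253601: gaccagccagtgTACctgcccactcag
Y698F, codon at chr19:41256507-41256509: tccaagaagatcTACaatggggactac
Y726F, codon at chr19:41256591-41256593: gctgaccgtgtcTACaccagcaagagc
Y750F, codon at chr19:41257544-41257546: ggccaaaccccaTATccgggcgtggag
Y821F, codon at chr19:41259680-41259682: gacgaaatcctcTATgtcaacatggat
All 6 codons read as tyrosine in the reference, which checks the residue numbering of the labels, and the span from Y634 to Y821 is 187 residues.

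The authors deposited TPM, a transcript abundance corrected for length and scaled to a fixed library total, which was summed per gene here. TPM keeps no read number, so the sequencing depth cannot be given. Tests covered 9085 genes whose TPM averaged 10 or more across all 29 libraries, on log2(TPM + 1), where changes of weakly expressed genes appear too small. The epithelial markers KRT8, KRT18, KRT19, EPCAM and CDH1 passed this filter, whereas the lung lineage markers NKX2-1, NAPSA and SFTPB did not, with means of 0.05, 2.0 and 0.30 TPM. Of 12 markers of fibroblasts, endothelium and blood cells, 10 did not pass, among them PTPRC (0.38 TPM) and PECAM1 (3.83 TPM), and only COL1A1 and CD68 did, with means of 42.6 and 42.1 TPM. Their list mean in WT was above the mutants with E (5.55 against 5.32 to 5.50 on the log2 scale) and inside their range otherwise, and its part in the results was not tested. Mitochondrially encoded RNA was 14.2% of TPM in untreated WT and 11.4 to 13.5% in the untreated mutants. The Y821F library with EA stood apart from the rest in its mitochondrially encoded RNA, at 17.4% of TPM against 12.9 to 14.4% in the other 6 lines.

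AXL RNA was lower in WT than in any mutant in each treatment. Untreated WT had 217 TPM and the mutants had 273, 323 and 428 TPM (lowest, median and highest of 6 lines, as below). With E, WT had 408 TPM and the mutants 488, 612 and 852 TPM. With EA, WT had 338 TPM and the mutants 437, 542 and 849 TPM. The lowest mutant was Y634F in each treatment, and the highest was Y726F untreated and Y750F with E and EA. Averaged over the treatments, the log2 difference of WT from the mutants was -0.69 (standard error 0.24, limma adjusted p = 0.613). The receptor was thus not matched in RNA between WT and the mutants, and KD, at 238, 379 and 386 TPM, lay near WT. Amount of AXL and presence of the tyrosines cannot be told apart in these lines.

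The difference was not the same in every transcript of the gene. AXL-201, the longest transcript, was at 47.6, 43.9 and 50.1 TPM in WT (UT, E and EA) and between 40.6 and 60.5 TPM in all mutant libraries. KO had 41.8 and 39.6 TPM of it, untreated and with E, so that the transduced lines stood close to the knockout. AXL-203, a shorter coding transcript with 1878 of the 2682 coding bases of AXL-201, was at 64.6, 140 and 124 TPM in WT, where the mutant medians were 94.3, 213 and 196 TPM and the lowest mutant values 84.4, 168 and 159 TPM. AXL-205, annotated as a retained-intron transcript that ends upstream of the first mutated codon, was at 25.2, 104 and 74.1 TPM in WT and at medians of 56.4, 178 and 148 TPM in the mutants. AXL-202, which keeps 2655 of the coding bases, was at 72.4, 117 and 90.2 TPM in WT, where the mutant medians were 113, 172 and 149 TPM and the lowest mutant values 92.2, 118 and 114 TPM. In KO, AXL-203 reached 12.6 TPM, AXL-205 0.19 TPM and AXL-202 33.0 TPM. WT was below all 6 mutants in AXL-202, AXL-203 and AXL-205 in each treatment, by wide gaps except in AXL-202 with E, while its AXL-201 was just below them untreated and with E and within their range with EA. How reads that overlap several transcripts were assigned is the authors' quantification and was not tested.

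**Figure D1:**
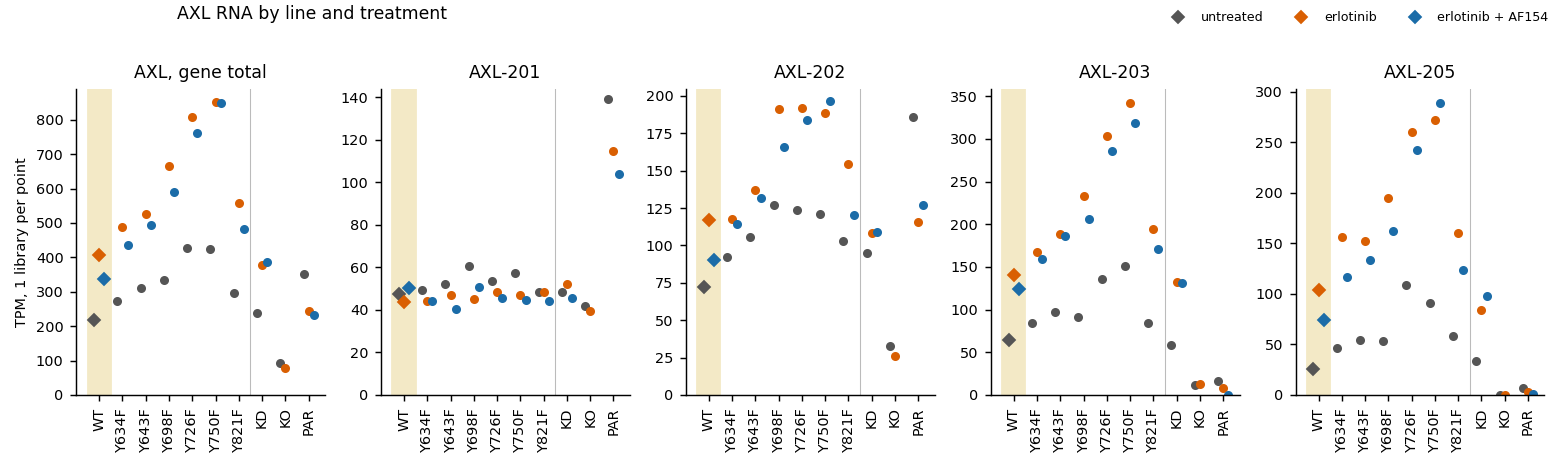
AXL RNA in TPM (linear axes from 0, scales differ between panels) for the gene and 4 of its transcripts, by line (x axis) and treatment (colour), 1 library per point, with WT as diamonds on a shaded band. WT sits below the 6 mutants in the gene total, whereas AXL-201 runs at about the same level, between 40.6 and 60.5 TPM, in the mutants and in WT.

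Erlotinib raised AXL in WT as in the mutants. The log2 change was 0.91 in WT and ran from 0.76 to 1.01 in the mutants (mean 0.90, limma adjusted p = 7.34e-07 for the 6 lines), so WT lay inside their range. It differed between transcripts. The ratio of E to UT was 1.62 in WT and 1.27 to 1.56 in the mutants for AXL-202, 2.17 in WT and 1.94 to 2.55 in the mutants for AXL-203, 4.12 in WT and 2.39 to 3.63 in the mutants for AXL-205, and 0.92 in WT and 0.74 to 1.01 in the mutants for AXL-201. In PAR the gene went from 351 TPM to 245 TPM. With AF154 added, AXL changed by -0.27 on the log2 scale in WT, and the mutants by between -0.21 and -0.0046.

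Of the other TAM genes, MERTK and the ligand PROS1 did not pass the filter. TYRO3 had 17.9, 14.1 and 11.99 TPM in WT, inside the mutant range in each treatment. GAS6, the ligand of AXL, had 41.0 TPM untreated and 72.7 TPM with E in WT, and its erlotinib change of 0.81 lay within 0.78 to 0.93 in the mutants. EGFR was at 203 TPM in untreated WT, above the mutants' 171 to 195 TPM, and inside their range with E. YAP1, the transcriptional coactivator of the Hippo pathway, had 94.6 TPM in untreated WT and lay just below the mutants with E (86.9 against 87.7 TPM in the lowest) and EA (87.2 against 89.5 TPM). PTK2, which encodes focal adhesion kinase, lay within the mutant range in each treatment. None of these genes passed the test.

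Across all genes, WT was close to the mutants. The root mean square log2 difference between untreated WT and a mutant was 0.26 to 0.33, with Y698F nearest and Y634F farthest, and that between 2 mutants was 0.22 to 0.27. With E the values were 0.24 to 0.31 for WT and 0.21 to 0.28 between mutants, and with EA 0.25 to 0.36 and 0.23 to 0.37. By these distances WT stood slightly outside the mutants untreated, where 4 of the 6 distances exceeded the largest between mutants, and among them with EA. In a principal component analysis of the 21 libraries, component 1 held 75.2% of the variance and separated untreated from treated cells. On component 2, with 5.79% of the variance, untreated WT scored 14.2 and the untreated mutants -8.52 to 4.24. With E, WT was outside the mutants on component 1 (-19.4 against -26.9 to -22.4) and component 3 (7.01 against -13.7 to 4.23). With EA it was outside on component 4 (11.96 against -4.55 to 0.47). Components 3 and 4 held 2.61% and 1.72% of the variance. Elsewhere on these components WT was inside the mutant range, or just above it on component 3 untreated.

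No gene differed between WT and the mutants at an adjusted p of 0.05 when the 7 line means were compared with limma (0 of 9085 genes, 0.0%, with 584 at an unadjusted p under 0.05, 155 higher and 429 lower in WT). Fitting the 21 libraries with treatment as a block and line as a random block gave 17 genes (2 higher, 15 lower), and treating them as independent gave 63 genes (8 higher, 55 lower). In that last fit the 3 libraries of a line count as replicates, although they are the same transduced cells. The random block takes this out only in part, since the correlation it used between libraries of a line was 0.134. With WT as 1 of 7 lines, an exact permutation of a value could not reach a p below 0.143.

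What can be described is where WT left the range of all 6 mutants. It did so for 41.9% of genes untreated (22.4% higher, 19.5% lower), 34.7% with E (14.3% higher, 20.4% lower) and 26.4% with EA (10.9% higher, 15.5% lower). If the 7 lines were interchangeable, any 1 of them would be highest in a share of 0.143 of genes and lowest in the same share. The share higher with E was at this value, and the share higher with EA was below it. WT was on the same side in each treatment for 203 genes (2.23%), of which 52 were higher (0.572%) and 151 lower (1.66%) in WT. After centring of the libraries on their medians the numbers were 101 higher and 128 lower, of which 44 and 115 were among the genes counted here. The share that was lower depends on the scaling. The leading genes of each side described next were those of the 203 with the largest moderated statistic. That WT lies outside the mutants in each treatment in these genes therefore holds by the choice.

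Among the 12 leading genes higher in WT, IGFBP2, a secreted binding protein of insulin-like growth factors (chromosome 2 from 216632828 to 216664436, GRCh38), had the largest difference. Untreated, WT had 29.6 TPM and the mutants 11.5, 14.4 and 17.2 TPM. With E, WT had 13.8 TPM and the mutants 5.40, 6.26 and 9.30 TPM, and with EA 12.8 TPM against 4.35, 7.36 and 9.65 TPM. The WT value was above the highest mutant by a wide margin in each treatment. The mutants alone would not have met the filter of 10 TPM for IGFBP2. It was tested through the libraries where it was higher, those of WT among them, so its place among the leading genes depends partly on the filter. The log2 difference was 0.93 (standard error 0.21, limma adjusted p = 0.277). The adjusted p was 0.0262 with line as a random block and ranged from 0.00685 to 1 over the alternatives. The erlotinib change of IGFBP2 was -1.05 in WT and -0.98 on average in the mutants, on the log2 scale. In KO and PAR it was also above the mutants untreated, at 25.6 and 49.0 TPM.

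SCARB1, the receptor for high-density lipoprotein (chromosome 12 from 124776856 to 124882668, GRCh38), had 75.2, 50.6 and 50.6 TPM in WT. The mutants had 45.0, 53.3 and 64.3 TPM untreated, 37.9, 45.4 and 47.6 TPM with E, and 38.6, 42.6 and 45.0 TPM with EA. Every WT value was above the highest mutant, with the smallest gap in E (log2 difference 0.31, standard error 0.07, limma adjusted p = 0.277). AKR1C3, an aldo-keto reductase of steroid and prostaglandin metabolism, had 816, 1200 and 1310 TPM in WT and medians of 640, 1015 and 1014 TPM in the mutants, whose highest values were 710, 1122 and 1138 TPM. Its log2 difference was 0.33 (standard error 0.09, limma adjusted p = 0.481). KO had 883 and 1284 TPM of AKR1C3, above WT. Reads of AKR1C3 can be divided with its near-identical relatives AKR1C1 and AKR1C2.

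CDKN2A, which encodes the cell cycle inhibitor p16 and ARF, had 303, 523 and 446 TPM in WT against highest mutant values of 282, 449 and 427 TPM, a log2 difference of 0.20 (standard error 0.06, limma adjusted p = 0.519). ISCA2 of mitochondrial iron-sulfur assembly, with 22.5, 24.2 and 24.2 TPM in WT, was above mutant maxima of 19.9, 19.9 and 20.4 TPM. The cholesterol enzymes IDI1 and DHCR7 are given with their pathway. The other genes on this side were SULF2, an extracellular heparan sulfate sulfatase, HCFC1R1, TWSG1, a binding protein of bone morphogenetic proteins, IGF2BP3, an RNA-binding protein, and SERPINB5, the serpin maspin, with log2 differences of 0.27 to 0.31. None passed the test. ISCA2, SULF2, HCFC1R1 and IGF2BP3 overlap a gene on the opposite strand, and whether strand was used in the quantification is not given in the sources used here.

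Among the 12 leading genes lower in WT, SLC26A1, a sulfate and oxalate transporter (chromosome 4 from 979073 to 993440, GRCh38), stood first. Untreated, WT had 8.96 TPM and the mutants 16.7, 26.1 and 34.8 TPM. With E, WT had 15.5 TPM against 30.0, 33.4 and 54.1 TPM, and with EA 18.9 TPM against 36.9, 49.5 and 84.3 TPM. By the choice of genes the groups did not overlap, and the lowest mutant was far above WT in each treatment. The log2 difference was -1.29 (standard error 0.17, limma adjusted p = 0.0942, the smallest of the 9085 genes). It passed the threshold in 6 of 21 alternatives, among them without Y643F (adjusted p = 0.0129), and the adjusted p ranged from 0.00384 to 1. SLC26A1 overlaps IDUA on the opposite strand and DGKQ on the same strand, and their reads may not be separable. KO had 14.4 and 31.5 TPM of it and KD 20.3, 21.3 and 35.3 TPM.

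HSF4, a heat shock transcription factor, overlaps a protein-coding gene on the same strand that averaged 7.65 TPM, and their reads may not be separable. HSF4 had 10.03, 11.96 and 10.7 TPM in WT. Its mutant values were 12.7, 13.9 and 21.98 TPM untreated, 24.3, 31.8 and 46.0 TPM with E, and 13.7, 28.5 and 31.7 TPM with EA, so that the gap was widest with E. The log2 difference was -1.03 (standard error 0.17, limma adjusted p = 0.2). MIB2, a ubiquitin ligase that acts on Notch ligands, had 11.7, 18.2 and 15.7 TPM in WT, below mutant minima of 19.0, 23.3 and 24.8 TPM (log2 difference -0.78, standard error 0.12, limma adjusted p = 0.2). OGT, the enzyme that adds O-linked N-acetylglucosamine to proteins, had 50.9, 46.7 and 49.5 TPM in WT, below minima of 58.7, 63.0 and 64.3 TPM (log2 difference -0.50, standard error 0.10, limma adjusted p = 0.277). The mutant medians of OGT were 65.4, 67.1 and 74.8 TPM.

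The remaining genes on the lower side were the immune receptor PILRB (-0.47), the mannosidase MAN2C1 (-0.63), the actin-binding CORO6 (-0.55), the sulfotransferase SULT1A3 (-0.75), FCHSD1 (-0.58), the interferon signaling factor IRF9 (-0.59), the carnitine palmitoyltransferase CPT1B (-0.70) and the DNA helicase RECQL4 (-0.47), given as log2 differences. Their adjusted p values in limma ran from 0.2 to 0.277. SULT1A3 has a near-identical copy, SULT1A4, and CPT1B overlaps the readthrough gene CHKB-CPT1B, so both values are uncertain. MAN2C1, CORO6 and FCHSD1 overlap a gene on the opposite strand.

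**Figure D2:**
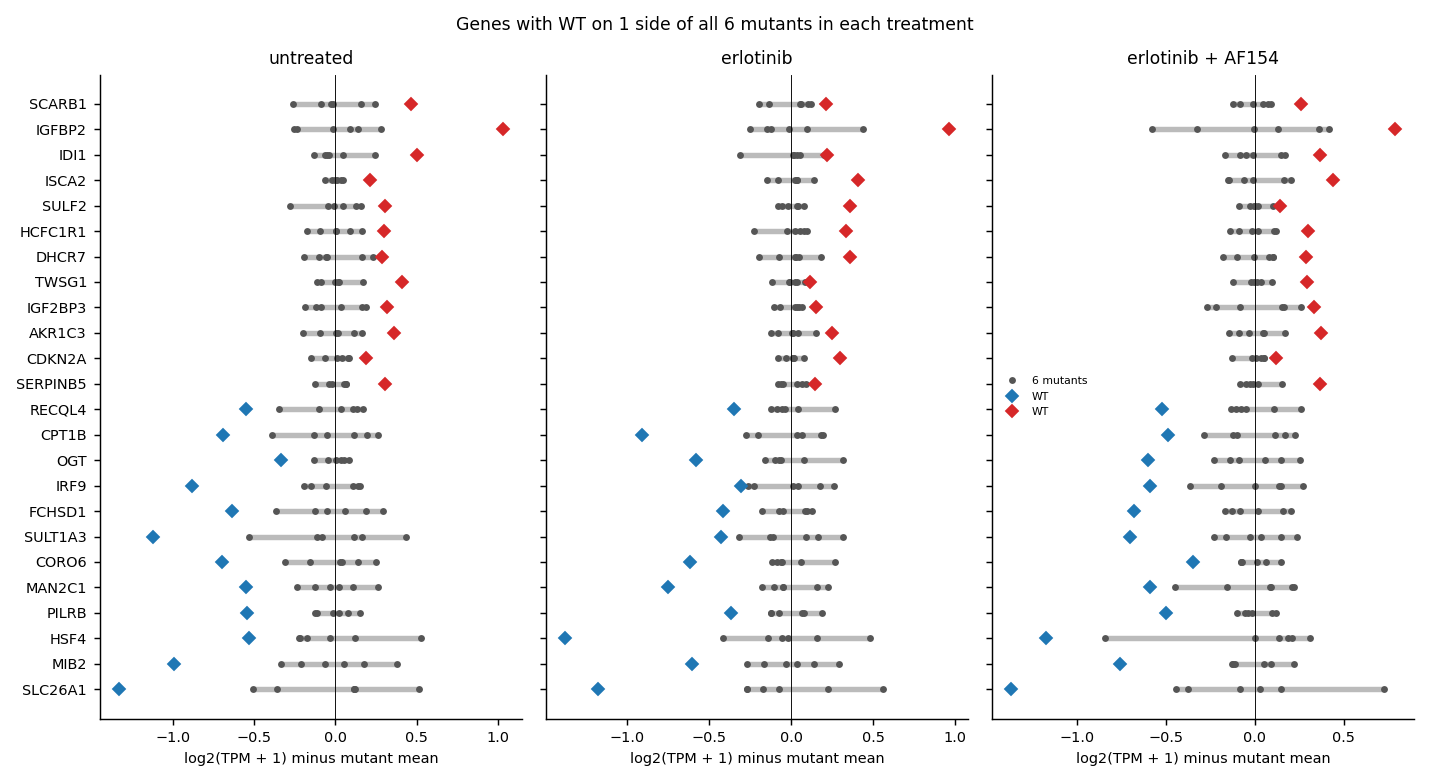
The 24 leading genes (rows) by treatment (panels), as log2(TPM + 1) minus the mean of the 6 mutants. Dots are mutants, the grey bar is their range, and the diamond is WT (red higher, blue lower). WT lies outside the bar in every panel because the genes were chosen so. The differences run from SLC26A1 at a mean log2 difference of -1.29 to IGFBP2 at 0.93.

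The lower genes often had RNA assigned to retained-intron transcripts. A retained-intron transcript is an annotated form that keeps an intron. Such transcripts held 4.30, 4.26 and 4.33% of TPM in WT (UT, E and EA). In the mutants they held 4.32, 4.56 and 4.75% untreated, 4.64, 4.80 and 5.26% with E, and 4.65, 4.76 and 5.10% with EA. WT had the lowest share of the 7 lines in each treatment, with Y750F close to it untreated. KO had 4.16 and 4.45%, KD 4.29, 4.35 and 4.49%, and all of them lay below all mutants of the same treatment, while PAR had 5.34% untreated, above all mutants, and 4.21 and 4.32% with E and EA, below WT.

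The same was seen gene by gene. Of the 9085 genes, 1167 (12.8%) had at least 20% of their TPM in retained-intron transcripts, as read in the KO, KD and PAR libraries. They made up 68 of the 151 genes below all mutants in each treatment (45.0%) and 2 of the 52 above (3.85%). Among the 12 leading genes on each side they were 8 on the lower and 1 on the higher. The median log2 difference of WT from the mutants was 0.01 in the 5805 genes with a share under 5%, -0.07 in the 823 with 20 to 40% and -0.08 in the 344 with 40% or more. In this last class 250 genes (72.7%) were lower in WT, where 52.0% of all tested genes were. The part of retained-intron RNA in the lower genes was not tested beyond these values.

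**Figure D3:**
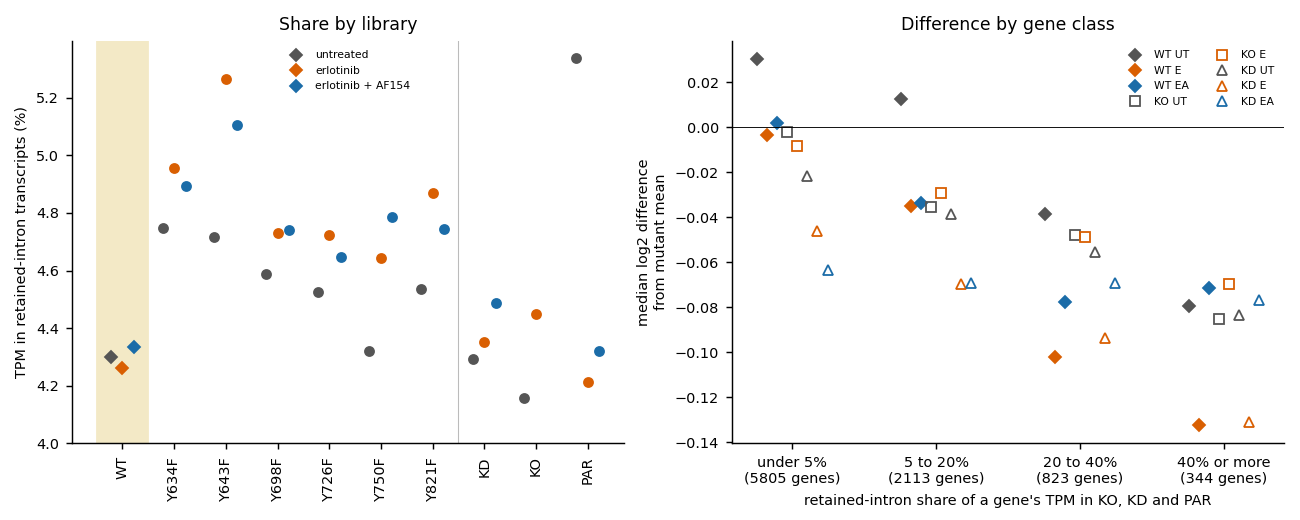
Left, TPM in retained-intron transcripts (% of all TPM, axis from 4) by line and treatment, 1 library per point. Right, the median log2 difference from the mutant mean for WT, KO and KD (y axis) in genes grouped by their retained-intron share (x axis). WT is lowest of the 7 compared lines in each treatment, and the medians lie between -0.07 and -0.13 in the 344 genes with a share of 40% or more. All 3 lines are set against the same mutant mean, and KO and KD helped to define the classes, so their medians are not independent of each other.

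The other lines were placed against the same genes. Of the 151 lower genes, 75 were below all mutants in untreated KO and 69 in untreated KD (background over all genes 18.4% and 17.2%). With E the numbers were 76 in KO and 82 in KD (background 19.8% and 24.0%), and with EA 59 in KD (24.5%). In PAR they were 47 untreated, 106 with E and 115 with EA (background 29%, 43.9% and 35.2%). Of the 52 higher genes, 8 were above all mutants in untreated KO and 8 in untreated KD (background 12.7% and 9.57%), and with E 12 in KO and 4 in KD (14.1% and 6.18%). KD had 9 with EA (6.84%), and PAR had 19 untreated, 22 with E and 29 with EA (33.5%, 17.4% and 21.9%). These comparisons share the mutants as their reference, so the counts are not independent of each other.

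A total of 28 gene lists were described by their mean level. Cholesterol synthesis was the only list in which WT was above all mutants in each treatment. This pathway makes cholesterol from acetyl-CoA under control of SREBP2, and its genes rise when sterols are scarce. All 18 of its tested genes were higher in WT on average (48.0% of all genes were), with a median log2 difference of 0.18 where the median over all genes was -0.0044, and all 18 remained higher under the 3 other scalings. The list mean was 5.94 in untreated WT and 5.60, 5.70 and 5.93 in the mutants, a gap that closed when libraries were centred on the median or quantile normalized. With E it was 5.80 against 5.52, 5.63 and 5.70, and with EA 5.90 against 5.55, 5.75 and 5.87. None of the genes passed the test over all genes, and 7 had an unadjusted p under 0.05 where 6.43% of all genes did.

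IDI1, the isomerase of isopentenyl diphosphate (chromosome 10 from 1039152 to 1049170, GRCh38), had 54.9, 34.0 and 44.4 TPM in WT. The mutants had 35.0, 37.2 and 45.7 TPM untreated, 23.2, 29.6 and 33.6 TPM with E, and 30.3, 33.4 and 38.5 TPM with EA, all of them below WT, though only just with E. The log2 difference was 0.36 (standard error 0.08, limma adjusted p = 0.277). DHCR7, which makes the last step to cholesterol, had 116, 99.5 and 102 TPM in WT and mutant maxima of 112, 87.7 and 89.7 TPM (log2 difference 0.31, standard error 0.09, limma adjusted p = 0.481). INSIG1, a sterol-regulated retention protein of the SREBP pathway, had 37.7, 29.6 and 33.3 TPM in WT and mutant maxima of 37.1, 27.2 and 28.6 TPM. These 3 genes were above all mutants in each treatment. SQLE, MSMO1 and CYP51A1 were above them in 2 treatments. KO and KD were at list means of 5.58 and 5.45 untreated, below all mutants, and at 5.43 and 5.43 with E. PAR, at 5.97, 5.73 and 6.14, was above all mutants in each treatment, as WT was.

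The fatty acid genes were less uniform. In this list 7 of 9 tested genes were higher in WT (median 0.14), and the list mean was above the mutants only untreated. The desaturase SCD had 75.8, 36.7 and 44.8 TPM in WT against medians of 49.4, 30.0 and 34.9 TPM in the mutants. FASN, the fatty acid synthase, went the other way, with 158 TPM in untreated WT below the mutants' 167 to 232 TPM and values inside their range with E and EA.

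Cytokines and NF-kB targets were the only list in which WT was below all mutants in each treatment, also under the 3 other scalings. Of the 9 tested genes, 8 were lower in WT on average, with a median of -0.17. The list mean was 4.65 in untreated WT and 4.70, 4.78 and 5.18 in the mutants. TNFAIP3, the NF-kB inhibitor A20, had 34.9, 19.9 and 15.8 TPM in WT and mutant minima of 35.3, 22.1 and 20.4 TPM. BIRC3, a ubiquitin ligase of the inhibitor of apoptosis family, had 39.0 TPM with E against 53.3, 55.0 and 70.0 TPM in the mutants, and was at their minimum untreated (20.2 TPM). The cytokine IL6 had 13.1 and 11.7 TPM in WT with E and EA, below minima of 13.8 and 14.3 TPM. LIF, LCN2 and ICAM1 differed by at most 0.03 in size. KO and KD had list means of 5.07 and 4.85 untreated, above WT, and PAR had 4.40, 4.89 and 4.88 (UT, E and EA), below WT and all mutants in each treatment.

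The mean levels of the cell division lists were above all mutants in WT untreated and with E, although 0 of their genes passed the test. Of 24 mitosis genes, 24 had a higher mean in WT (median 0.11, also under the 3 other scalings), and of 21 DNA replication genes, 17 had, where 48.0% of all genes did. An unadjusted p under 0.05 was reached by 2 of the mitosis genes and 0 of the replication genes (6.43% of all genes). The mitosis mean was 6.86 in untreated WT and 6.65, 6.74 and 6.80 in the mutants, and with E 5.69 against 5.45, 5.51 and 5.62. The replication mean was 6.10 against 5.99, 6.02 and 6.06 untreated and 4.18 against 3.74, 4.01 and 4.06 with E. With EA both lists were inside the mutant range. PLK1, a mitotic kinase, had 164 TPM in untreated WT against 134 to 150 TPM in the mutants, 70.9 TPM with E against 52.5 to 58.4 TPM, and 69.5 TPM with EA, inside 58.4 to 79.9 TPM. TYMS, thymidylate synthase, went from 44.4 TPM with E, above the mutants' 24.5 to 38.4 TPM, to 51.4 TPM with EA, inside 33.1 to 56.5 TPM.

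**Figure D4:**
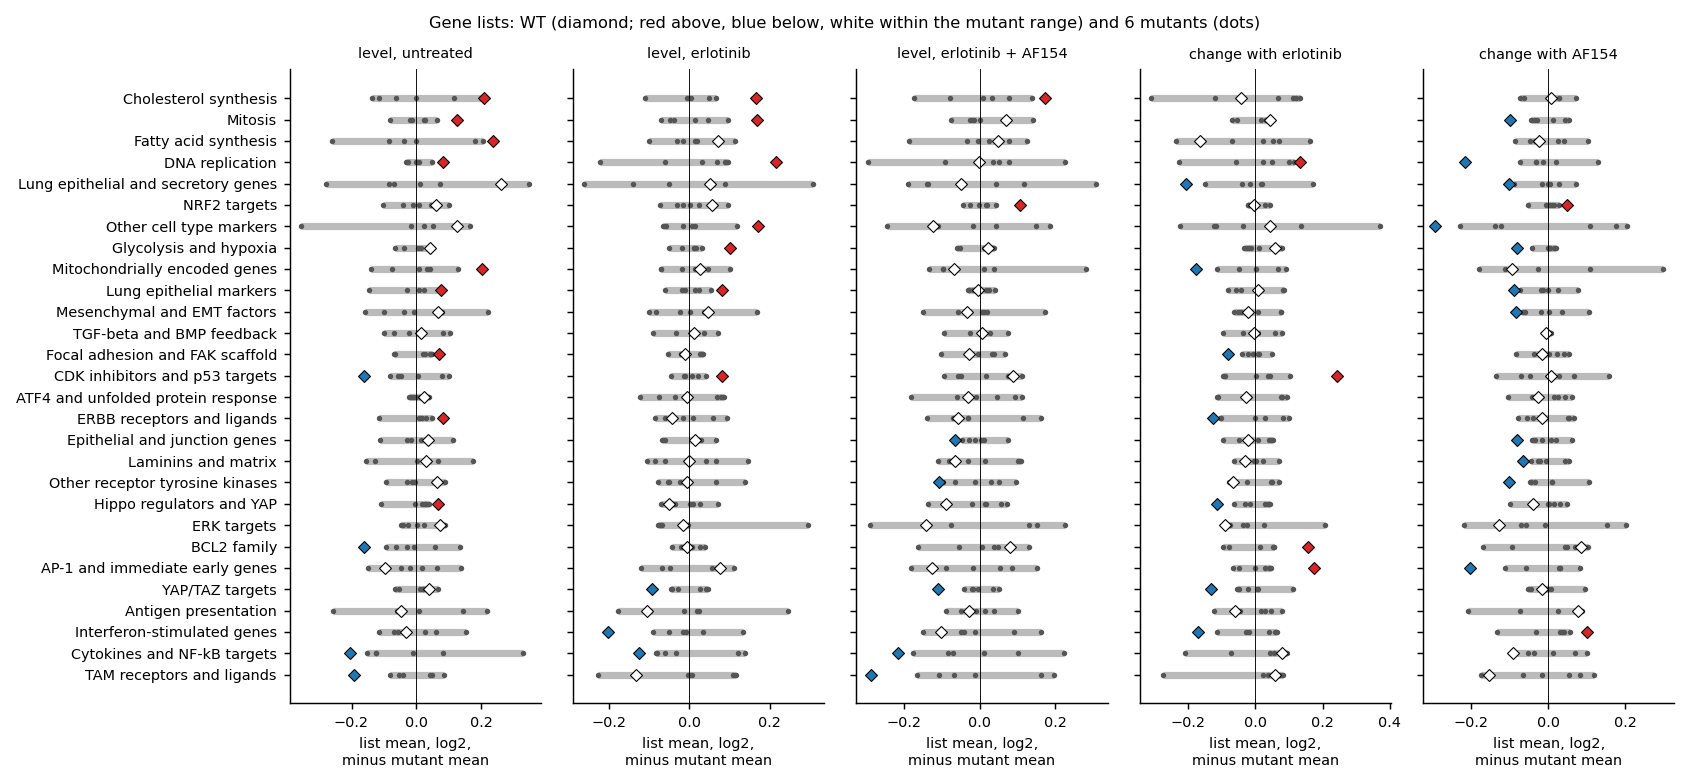
Mean log2(TPM + 1) of 28 gene lists (rows, ordered by the difference averaged over treatments), minus the mutant mean, for levels in 3 treatments and for the changes with erlotinib and with AF154 (panels). Dots are mutants, the bar is their range, and the diamond is WT, red above, blue below and white within the range. Cholesterol synthesis is red in all 3 level panels, cytokines and NF-kB targets blue in all 3, and DNA replication is red untreated and with E and blue for the change with AF154.

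The erlotinib response of WT was that of the mutants in direction and nearly in size. In the 6 mutants, 6916 of 9085 genes (76.1%) passed the test of the change from untreated to E, 3302 up and 3614 down. WT moved the same way in 6401 of them (92.6%), and in 1111 of the 1116 genes whose mean change exceeded 1 in size (99.6%). Over these 1116 genes the median of the ratio of the WT change to the mutant mean was 0.94. Across genes, Pearson's r between the WT change and the mutant mean was 0.909 with a slope of 0.93, and each mutant against the other 5 gave 0.936 to 0.951. This is a description across genes, which are not independent. The ERK target list, the direct transcriptional output of the pathway blocked by erlotinib, changed by -2.03 in WT and by -2.03 to -1.73 in the mutants.

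**Figure D5:**
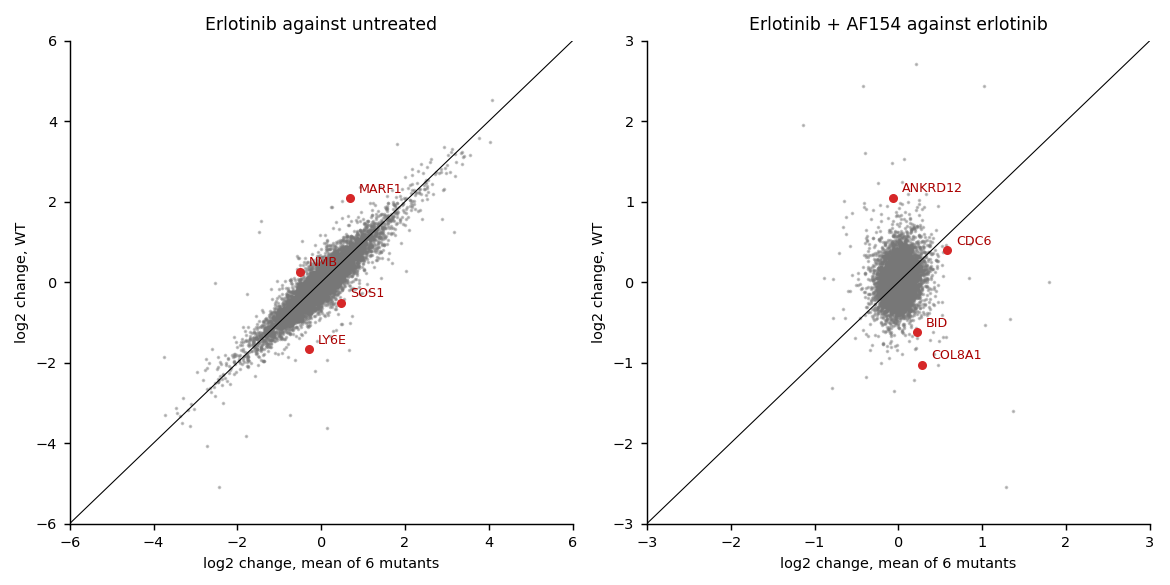
Log2 change of each gene in WT (y axis) against the mean change of the 6 mutants (x axis), for erlotinib (left) and for AF154 added to erlotinib (right), with the line of equality. The pseudogene RPL21P16 is not drawn, and 2 genes lie outside the right axes. The erlotinib changes follow the line (r = 0.909), and the AF154 changes form a cloud that does not follow it (r = -0.0050). Both r values include RPL21P16, and how far single genes set them was not tested.

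Between WT and the mutants, the erlotinib change itself differed in 2 of 9085 genes (0.022%, limma, with 1141 at an unadjusted p under 0.05). MARF1, a regulator of meiosis and RNA stability (chromosome 16 from 15594386 to 15643166, GRCh38), went from 3.83 to 19.5 TPM in WT and from a median of 12.5 to 20.3 TPM in the mutants. The WT level was below all mutants untreated (minimum 8.58 TPM) and inside their range with E. The log2 change was 2.08 in WT and 0.50 to 0.81 in the mutants (difference 1.40, standard error 0.14, adjusted p = 0.0283). The direction was the same in all 14 alternatives and the call held in 7 of them, with adjusted p from 0.00295 to 0.236. The other gene was the ribosomal protein pseudogene RPL21P16, at 320 TPM in untreated WT, listed at 0 in all untreated mutants and at no more than 0.0015 TPM with E, but up to 339 TPM in mutants with EA. Its reads can be shared with the RPL21 family, and its value is uncertain. In both genes WT was apart from the mutants untreated. That 1 library enters every erlotinib change of WT, so the untreated level and the change are not separate observations.

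Of the other leading genes for a larger erlotinib change in WT, RAB35, a small GTPase of endosomal recycling, went from 52.9 to 66.7 TPM in WT and from a median of 67.9 to 52.96 TPM in the mutants, with no overlap in either treatment. NMB, which encodes neuromedin B, went from 144 to 173 TPM in WT and from 155 to 113 TPM in the mutants. DOHH, an enzyme of hypusine formation, and the histone gene H4C14 had differences of 0.75 and 0.99. On the lower side, SOS1, the exchange factor that loads RAS with GTP, went from 30.2 to 20.9 TPM in WT and from 18.7 to 25.5 TPM in the mutants. LY6E went from 87.5 to 26.9 TPM against 57.5 to 51.9 TPM, and IRAK4, a kinase of Toll-like receptor signaling, from 12.98 to 8.35 TPM against 8.73 to 12.9 TPM. ZNF33B and ZNF816 had differences of -0.92 and -0.72. The limma adjusted p of these genes was 0.138 for ZNF33B and 0.19 for the others.

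Within single treatments, the untreated comparison gave 2 genes past the threshold (0.022%), RPL21P16 and ACAP1, a GTPase-activating protein for ARF6. ACAP1 had 11.2 TPM in untreated WT against 23.4, 26.5 and 27.8 TPM in the mutants (log2 difference -1.13, standard error 0.13, limma adjusted p = 0.017), and was inside their range with E and EA. With E, where 8.31% of genes had an unadjusted p under 0.05, the 2 genes past the threshold were SSX2 and SSX2B, cancer-testis antigen genes that are near-identical copies. SSX2 was higher (31.4 TPM in WT, 6.25 to 7.43 TPM in the mutants) and SSX2B lower (2.56 TPM, 26.2 to 27.6 TPM), so that reads may have been assigned to the other copy. With EA 0 genes passed, with 378 at an unadjusted p under 0.05.

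Of the 28 lists, 4 had an erlotinib change above all mutants in WT and 7 had one below. For single genes the background was 42.5% outside the mutant range, 17.8% above and 24.7% below. CDK inhibitors and p53 targets changed by 1.09 in WT and by 0.76 to 0.95 in the mutants, from a lower untreated mean (4.79 against 4.87 to 5.05). BBC3, the BH3-only death gene PUMA, went from 4.27 to 19.7 TPM in WT and from 7.73 to 19.6 TPM at the mutant medians, and CDKN1A, which encodes p21, from 30.5 to 29.5 TPM in WT and from 38.3 to 29.8 TPM in the mutants. The BCL2 family, which includes BBC3, changed by 0.59 against 0.34 to 0.49. With E the BCL2 family mean was inside the mutant range (5.63 in WT), and that of the CDK inhibitors was above it (5.88 against 5.76 to 5.85).

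The YAP/TAZ target list had a smaller erlotinib change in WT, 0.45 against 0.53 to 0.69 in the mutants, and 0.42 against 0.51 to 0.68 with AXL, itself a list member, left out. The level with E was below all mutants (6.08 against 6.13 to 6.22), but inside their range without AXL or with libraries centred on the median. With EA it was below them (6.04 against 6.11 to 6.20), also under the 3 other scalings and, by a small gap, without AXL (5.902 against 5.906 in the lowest). Among the other lines, KO and KD with E (6.01 and 6.03), KD with EA (6.08) and PAR with E and EA (5.76 and 5.62) were also below all mutants in the list with AXL. Without AXL, KO with E (5.99) and KD with EA (5.93) were inside the mutant range. KD with E (5.88) and PAR with E and EA (5.64 and 5.49) stayed below it. ANKRD1, a YAP target of stretch and matrix signaling, went from 28.3 to 14.97 TPM in WT and from 26.3 to 21.4 TPM at the mutant medians, while CCN1 went from 82.5 to 219 TPM and from 96.7 to 230 TPM and CCN2 from 13.5 to 15.2 TPM and from 12.4 to 14.1 TPM. Interferon-stimulated genes changed by 0.24 in WT and by 0.29 to 0.47 in the mutants. XAF1, an interferon-induced apoptosis factor, had 17.3 TPM with E in WT against 29.4, 31.2 and 43.6 TPM in the mutants, and STAT2 32.9 TPM against 38.1, 39.5 and 44.7 TPM.

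AF154 gave small changes in both groups. In the mutants 0 of 9085 genes passed the test of the change from E to EA (limma, 1346 at an unadjusted p under 0.05, smallest adjusted p 0.117), and between WT and the mutants 0 genes passed (472, or 5.2%, at an unadjusted p under 0.05). Across genes, r between the WT change and the mutant mean was -0.0050, and 0.109 to 0.464 for each mutant against the other 5, with Y698F and Y726F lowest. These r values include RPL21P16. A few genes with large changes can weigh on them, and how much was not tested. Of the 1346 genes, WT moved the same way in 891 (66.2%). These were 584 of the 816 that rose in the mutants (71.6%) and 307 of the 530 that fell (57.9%). Of the 4 genes with a mean mutant change over 1 in size, 0 moved the same way in WT. The median change was 0.08 in WT and 0.20 in the mutants. The genes were chosen by the mutants' own changes, which enlarges the mutant value, and the share over all 9085 genes was not counted. The median size of the change over all genes was 0.13 in WT, similar to the 0.10 to 0.18 of the mutants.

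The cell division lists had smaller AF154 changes in WT than in any mutant. The DNA replication list changed by 0.14 in WT and by 0.29, 0.34 and 0.49 in the mutants (lowest, median and highest), and mitosis by 0.18 against 0.24, 0.27 and 0.34. This was so under all 3 other scalings. Of the 21 replication genes, 18 had a smaller change in WT than the mutant mean (48.3% of all genes did), and 8 a change below all mutants (background 14.0% of genes below, 15.7% above and 29.7% outside). TYMS changed by 0.21 in WT and 0.34 to 0.71 in the mutants. CDC6, a licensing factor, changed by 0.40 and lay inside 0.34 to 0.78. WT with E was above the mutants in both lists, and that library enters the AF154 change as well, so the level and the change are not separate observations. KD went from 3.76 to 3.76 in replication and from 5.43 to 5.46 in mitosis with AF154, and PAR from 3.44 to 4.38 and from 5.22 to 5.71, more than any mutant. In all, 11 of the 28 lists had an AF154 change below all mutants and 2 had one above.

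Of the leading genes for the AF154 change, ANKRD12, a nuclear receptor coregulator, went from 9.61 to 20.95 TPM in WT and from a median of 19.6 to 18.7 TPM in the mutants. COX7B2 went from 24.3 to 42.0 TPM against 29.3 to 25.3 TPM, and TEFM, a mitochondrial transcription elongation factor, from 11.5 to 23.9 TPM against 18.1 to 19.6 TPM. XAF1 and RWDD3 had differences of 0.74 and 0.75. On the lower side, BID, a BH3-only death protein, went from 75.0 to 48.5 TPM in WT and from 55.5 to 64.3 TPM in the mutants, with no overlap with E or EA. COL8A1, a collagen of vessel walls and matrix, went from 11.8 to 5.30 TPM against 9.87 to 13.4 TPM. TOR2A, SDR42E1 and SLX1A had differences of -0.78, -0.59 and -0.86, and SLX1A has a near-identical copy. In several of these genes, WT left the mutant range in opposite directions in E and EA or in E alone, each of which is 1 library. The limma adjusted p was 0.654 for all of these genes but SLX1A, where it was 0.753.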

How the data were processed

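RNA of 29 libraries, 3 of WT and 18 of 6 mutants among them, was used. The authors deposited TPM per transcript. The submitters' notes name kallisto and GRCh38, and versions, strand setting and annotation are not given in the sources used here. Of 188753 transcripts, 169797 matched GENCODE 29 by identifier and were summed into 35579 genes (97.0 to 97.4% of TPM). The 9085 genes averaging 10 TPM or more were taken as log2(TPM + 1), with a pseudocount of 1. No counts were at hand, so depth and counting error are unknown.

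The mean of the 3 treatments of each line, each treatment, and the changes within lines were compared between WT and 6 mutants with limma 3.58.1 in R 4.3.3 (trend, Benjamini-Hochberg, 0.05 over all genes). A line was the replicate, and the spread between mutants stood for the error. Because WT is 1 line and the mutants are 6 different receptors, a difference includes line-to-line variation. Fits were also run on simulated data, whose outcome is not given here. These data gave WT the spread of the mutants, an assumption that 1 WT line cannot test. Named genes were AXL, TYRO3, MERTK, GAS6, PROS1, EGFR, YAP1 and PTK2, the 12 highest and 12 lowest genes outside the mutant range in all 3 treatments, the 5 and 5 leading genes of each change, genes past a threshold and, from the lists, members chosen after their values were seen. The members and lists were chosen with earlier results of these data known. The retained-intron grouping, the scalings of the lists, YAP/TAZ targets without AXL and the comparison with KO, KD and PAR were chosen after seeing the data. Python 3.11.15 with numpy 2.4.6, pandas 2.3.3 and matplotlib 3.10.9 was used for tables and figures.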

Additional observations from a re-analysis of the deposited data

Results flagged for a closer look

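In 151 groups of 6 mutant values or 7 line values (list means, shares and changes), 9 had 1 member far from the others, and about 7.55 are flagged by chance at this limit. None of these members was WT. Untreated Y750F was low in the ERBB receptors and ligands (5.74 against 5.86 to 5.94), in the Hippo regulators (4.98 against 5.09 to 5.16) and in the markers of other cell types (4.88 against 5.22 to 5.40), as mean log2(TPM + 1). Y634F was high in ERK targets with E (4.10 against 3.73 to 3.80), and its erlotinib change was -1.73 against -2.03 to -1.91. Y821F with EA was high in mitochondrially encoded RNA, at 17.4% of TPM against 12.9 to 14.4%, and in the mean of those genes (13.3 against 12.9 to 13.1). The TAM list changed by 0.13 with erlotinib in Y643F and by 0.43 to 0.49 in the others. The YAP/TAZ list changed by 0.075 with AF154 in Y750F and by -0.072 to -0.012 in the others.

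The erlotinib change differed between WT and the mutants by limma in MARF1, by 1.40 on the log2 scale, and in the pseudogene RPL21P16, by -8.33.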

How the results depend on the processing

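Of 423 alternative values of counts and lists, 403 stayed within the limits set on their size and 20 moved. The side of the mutant range was not part of these limits. Some list means changed it, such as cholesterol synthesis untreated and YAP/TAZ targets with E under median centring. Of 863 for named genes, 811 kept their side of the threshold, 45 passed it newly, 7 lost it, all for MARF1, and 0 reversed. The count of genes differing between WT and the mutants, 0 as reported, was 1 with median centring, 284 with no filter (280 higher, 4 lower), 63 with 21 independent libraries, 17 with line as a random block and 5 with AXL level as a covariate. It was 0 to 3 when 1 mutant or 1 treatment was left out, with 3 without EA and 1 without Y643F. The count for the erlotinib change, 2 as reported, was 1 with a mean of at least 1 TPM, 343 with no filter, 0 with at least 10 TPM in all libraries and 1 with quantile normalization, and 1 to 2 with 1 mutant left out (1 without Y698F, Y750F or Y821F). MARF1 lost its call without Y634F, Y698F, Y726F, Y750F or Y821F, with the 1 TPM filter and with quantile normalization (adjusted p from 0.0532 to 0.236). The count for the AF154 change, 0 as reported, was 295 with no filter. The genes above all mutants in each treatment, 52 as reported, were 101 with median centring and 80 with quantile normalization, and 63 to 114 with 1 mutant left out (114 without Y643F, 81 without Y698F). Those below, 151, became 165 to 229 (229 without Y821F). A smaller set of mutants has a narrower range by construction. With no filter, genes of almost no spread enter the fit, and otherwise the cause was not tested. The changes pair the treatments of a line. For WT against the mutants, no pairing by replicate number could be made because the labels give none. WT is 1 line with 1 library per treatment, and TPM gives no depth, so counting error at low levels cannot be stated.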
